A study of Homo sapiens with 58 samples.

Results

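The effect of arsenite on HuR binding in the nuclear fraction was measured in 6 of the 58 libraries of a CLIP-seq series. In CLIP-seq, ultraviolet light crosslinks a protein to the RNA it touches, the protein is precipitated, and the attached RNA fragments (tags) are sequenced. The protein was HuR, encoded by ELAVL1 and precipitated with the 3A2 antibody, and the cells were wild-type Huh-7.5, a human hepatocellular carcinoma line. The 3 arsenite libraries came from the nuclear fraction of cells given 0.5 mM sodium arsenite for 45 min, and the 3 mock libraries from the nuclear fraction of mock-treated cells. Both groups were crosslinked at 254 nm with 400 and then 200 mJ/cm2, and no APEX labelling reaction was run on either. The 6 libraries were chosen by their labels. The labels do not say whether replicates were separate cultures, so p-values measure the spread between these libraries, which may be technical.

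HuR binds U-rich and AU-rich stretches in introns and in 3′ untranslated regions (3′UTRs) and is best known for stabilising short-lived mRNAs, among them those of growth factors, cyclins and early response transcription factors. It is mostly nuclear at rest and shuttles to the cytoplasm. Arsenite causes oxidative and proteotoxic stress, blocks translation initiation and gathers untranslated mRNA into cytoplasmic stress granules, and strong stress of this kind is known to alter splicing, transcription and mRNA export.

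Tags were counted in 387214 peaks of 20 nt, each with an annotation class. Library totals ran from 686263 to 1250151 tags, of which 34.1% to 36.6% fell in peaks. Levels are given as tags per 1000000 of the library total (CPM), so 1 tag was worth between 0.800 and 1.46 CPM. Peaks of a gene within a class were summed, and differences are log2 of arsenite over mock after adding 2 CPM. Since CPM is a share of the library, more HuR on an RNA, more of that RNA in the nucleus and less signal on other RNAs cannot be told apart. The liver identity held in part: 8 of 10 hepatocyte markers had nuclear tags, led by AFP and ALB, APOA1 and TTR had none, and their summed level was 1191.5 to 1291.9 CPM in mock and 803.1 to 875.9 CPM in arsenite libraries. The 4 fibroblast markers were all at 0, leukocyte markers summed to at most 8.18 CPM and endothelial markers to at most 1.73 CPM. As checks of the fraction, snoRNA-class genes summed to 1949 CPM in nuclear and 247 CPM in cytoplasmic mock libraries. In the same order, mitochondrially encoded RNA summed to 488 and 1129 CPM. Of the nuclear RNAs, NEAT1 was at 413 and 125 CPM, but MALAT1 was at 2561 and 2394 CPM. With arsenite, snoRNA-class genes were at 886 CPM in nuclear and 70.5 CPM in cytoplasmic libraries. Mitochondrially encoded RNA was then at 318 and 422 CPM, NEAT1 at 539 and 232 CPM and MALAT1 at 2903 and 2838 CPM. These markers did not all separate the fractions.

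The share of tags in 3′UTR peaks was higher in every arsenite library than in every mock library. It was 12.02%, 12.06% and 11.1% in the mock libraries and 20.7%, 18.7% and 18.2% in the arsenite libraries, a mean of 11.7% ± 0.541 (SD, n = 3) against 19.2% ± 1.33 (SD, n = 3). The intron share moved the other way, from 53.9% ± 0.359 to 47.3% ± 1.38 (SD, n = 3 each). The snoRNA class, small RNAs that guide modification of ribosomal RNA, went from 0.571% ± 0.0243 to 0.251% ± 0.0445. The groups did not overlap in any of the 10 classes. The two-sided exact permutation p was 0.1 in each, the smallest that 3 against 3 allows, and 0.1 after adjustment over the classes. Per library total the 3′UTR class went from 40079 to 68293 CPM and the intron class from 184207 to 168137 CPM. In the cytoplasmic fraction the 3′UTR share went from 42.3% ± 4.58 to 24.5% ± 0.943 (SD, n = 3 each). Its intron share went from 30.5% ± 3.74 to 43.7% ± 0.760. The fractions were thus closer to each other in these shares with arsenite than in mock, and why was not tested.

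**Figure D1:**
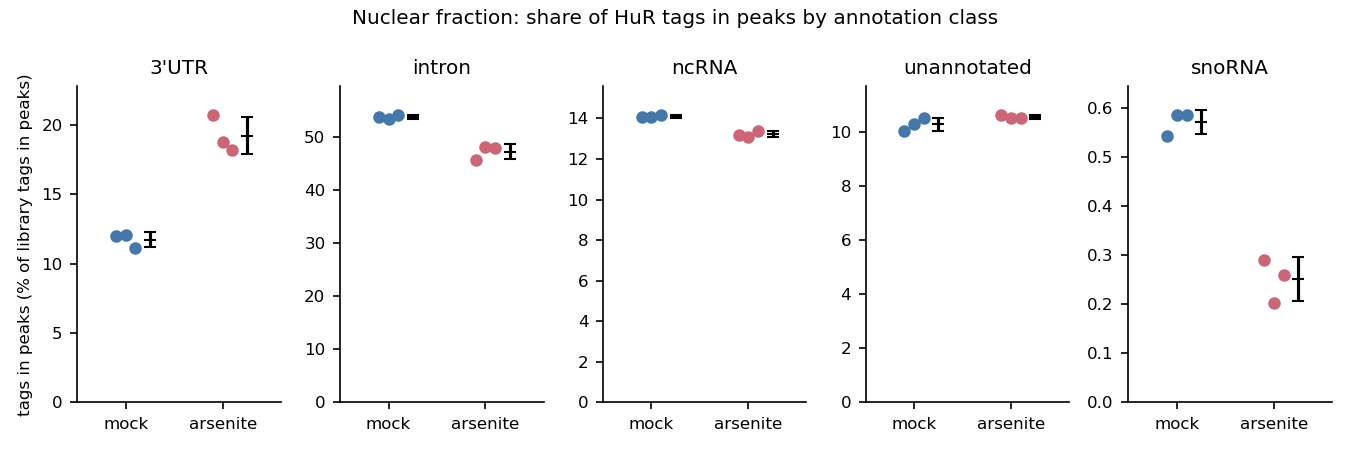
Share of each nuclear library's tags in peaks (y axis, percent, separate scale per panel) for 5 annotation classes. Coloured points are the 3 mock (blue) and 3 arsenite (red) libraries, and the black bar with whiskers is the mean ± SD; the 3′UTR share is higher and the intron and snoRNA shares are lower in all 3 arsenite libraries.

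Of 7619 genes with a 3′UTR peak, 2256 reached a mean of 5 CPM over the 6 libraries and were tested. Signal was higher with arsenite for 982 of them (43.5%) and lower for 47 (2.08%), at an adjusted p under 0.05 by limma over all 8163 gene and class sums. The median 3′UTR difference was 0.69. Over all classes 1196 sums were higher (14.7%) and 626 lower (7.67%), with a median difference of -0.01. When each library was centred on its median sum the split was 1073 higher and 922 lower, against 1196 and 626, and the 3′UTR counts were 899 and 64. All 3 arsenite libraries lay above all 3 mock libraries for 940 of the 982, and for 1130 of the 1196 rises over all classes. Calls and overlap rest on the same values, so these counts add no support of their own. Most of these genes had several peaks: 25 had 1 peak and 785 had 5 or more, and in those 785 the peak with the largest gain carried a median of 42.5% of the summed gains. Of 4 long non-coding RNAs listed as markers of cytoplasmic material, NORAD and TUG1 (itself in the 3′UTR class) rose. Levels of the 4 given here are sums over all classes of a gene, while each call is for 1 class. DANCR fell, from a mean of 13.7 to 4.07 CPM, but at 12.6 CPM in cytoplasmic mock libraries it did not mark the cytoplasm here. The others were higher in cytoplasmic than in nuclear mock libraries: NORAD at 141 and 28.1, TUG1 at 87.4 and 20.3 and OIP5-AS1 at 36.6 and 18.8 CPM. OIP5-AS1 was called higher (adjusted p = 0.036), but not without mock library 1, arsenite library 1 or arsenite library 3 (adjusted p from 0.131 to 0.193). The sum of the 4 RNAs went from 80.8 ± 3.27 to 213 ± 9.72 CPM, mostly through NORAD. In the cytoplasmic fraction their sum was 278 ± 36.9 CPM in mock and 255 ± 21.0 CPM in arsenite libraries. Whether the composition of the fraction has a part in the 3′UTR gain was not tested.

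**Figure D2:**
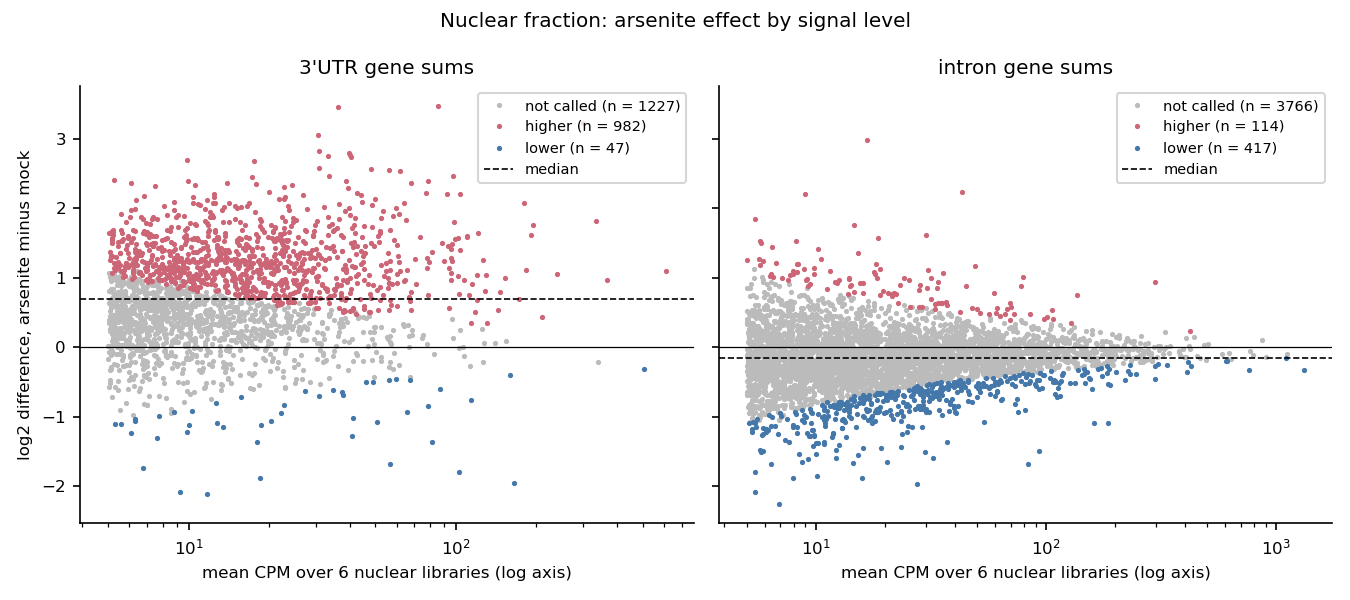
Log2 difference, arsenite minus mock (y axis), against mean CPM over the 6 nuclear libraries (x axis, log scale) for each tested 3′UTR sum (left) and intron sum (right). Red and blue points passed an adjusted p of 0.05; the dashed line is the median of the panel, 0.69 for 3′UTRs and -0.15 for introns.

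The 12 largest rises were in GNA11, JUN, JUND, NF2, FOXK2, EIF4G1, PDXK, TSPYL1, CASTOR2, SH2D4A, USP22 and DUSP9. GNA11 encodes a G protein alpha subunit that couples receptors to phospholipase C and lies at chr19:3094362-3123999 (GRCh38.p14). Its 3′UTR sum was 10.2, 16.4 and 11.6 CPM in the mock libraries and 155.3, 155.2 and 166.3 CPM in the arsenite libraries. This was a 12.5-fold ratio of means and a log2 difference of 3.47 ± 0.177 (SE), with an adjusted p of 2.7e-22 by limma. A peak at chr19:3121850-3121870, plus strand, carried 88.8% of the gain.

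JUN and JUND, partners in the AP-1 transcription factor whose mRNAs are short-lived, came next. The JUN 3′UTR (gene at chr1:58780791-58784047) had 5.83, 2.73 and 4.83 CPM in mock and 68.1, 58.4 and 77.1 CPM in arsenite libraries, a 15.2-fold ratio (log2 difference 3.46 ± 0.246 SE, adjusted p = 8.8e-17). All 3 of its peaks were higher in every arsenite library. The JUND 3′UTR (gene at chr19:18279694-18281622) went from 55.4, 57.3 and 55.0 CPM to 531, 498 and 593 CPM, a 9.67-fold ratio (log2 difference 3.22 ± 0.105 SE, adjusted p = 1.8e-31). Of the JUND gain, 96.9% lay in the peak at chr19:18280036-18280056, minus strand. Both groups were tight and far apart for JUND, which with 540 CPM had the second highest arsenite mean among the 3′UTRs called higher.

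NF2, which encodes the tumour suppressor merlin that links membrane and cytoskeleton, went from 5.31 ± 2.67 to 55.8 ± 3.02 CPM (SD, n = 3 each), with 5 of its 7 peaks higher in every arsenite library. FOXK2, a forkhead transcription factor, went from 6.15 ± 1.69 to 55.2 ± 8.46 CPM. EIF4G1, the scaffold of the cap-binding complex that starts translation, went from 8.83 ± 3.56 to 70.7 ± 10.6 CPM, with 98.7% of the gain in 1 of its 2 peaks. The groups of all 3 genes were separate, and their log2 differences were 3.05, 2.82 and 2.80.

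PDXK makes the active form of vitamin B6 and went from 9.09 ± 3.48 to 71.0 ± 9.61 CPM. TSPYL1, of the nucleosome assembly protein family, went from 7.60 ± 3.91 to 58.7 ± 3.70 CPM. CASTOR2 is a relative of the arginine sensor of mTORC1, and its gain was the most spread of the 12, with 8 of 10 peaks higher in every arsenite library and 43.0% of the gain in the leading one. USP22, the deubiquitinase of the SAGA chromatin complex, went from 3.43 ± 1.82 to 31.8 ± 2.83 CPM. DUSP9, a MAP kinase phosphatase, went from 7.80 ± 4.30 to 53.6 ± 9.29 CPM. SH2D4A, an SH2-domain adaptor with a single peak, had 1.46, 0.909 and 0.966 CPM in mock, which is 1 tag in each, and 24.8, 15.2 and 15.6 CPM in arsenite libraries.

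Among 3′UTRs called higher, the highest arsenite levels were those of HNRNPH1, JUND, KPNB1, ACTB, HNRNPU, TRIM71, MIDN and HMGCS1. These abundant targets changed by smaller factors than the 12 above, JUND apart. HNRNPH1, a splicing regulator, had 418, 403 and 348 CPM in mock and 878, 786 and 833 CPM in arsenite libraries, a 2.14-fold ratio (log2 difference 1.09 ± 0.0708 SE, adjusted p = 2.6e-18). KPNB1, importin beta of nuclear import, went from 147 ± 18.9 to 521 ± 71.1 CPM, with 99.2% of the gain in 1 peak. TRIM71, an RNA-binding ubiquitin ligase of stem cells and development, went from 89.1 ± 17.4 to 301 ± 10.6 CPM, with 11 of 18 peaks higher in every arsenite library.

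MIDN, which takes proteins to the proteasome without ubiquitin, went from 68.0 ± 9.82 to 291 ± 26.4 CPM. HNRNPU, a nuclear matrix RNA-binding protein, went from 154 ± 14.8 to 323 ± 27.9 CPM, and ACTB, cytoplasmic actin, from 249 ± 9.69 to 490 ± 29.9 CPM. The groups did not overlap for any of the 8. The ELAVL1 mRNA, which encodes HuR itself, also gained 3′UTR signal, from 13.97 ± 3.31 to 38.2 ± 3.204 CPM (log2 difference 1.35 ± 0.226 SE, adjusted p = 5.2e-06).

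**Figure D3:**
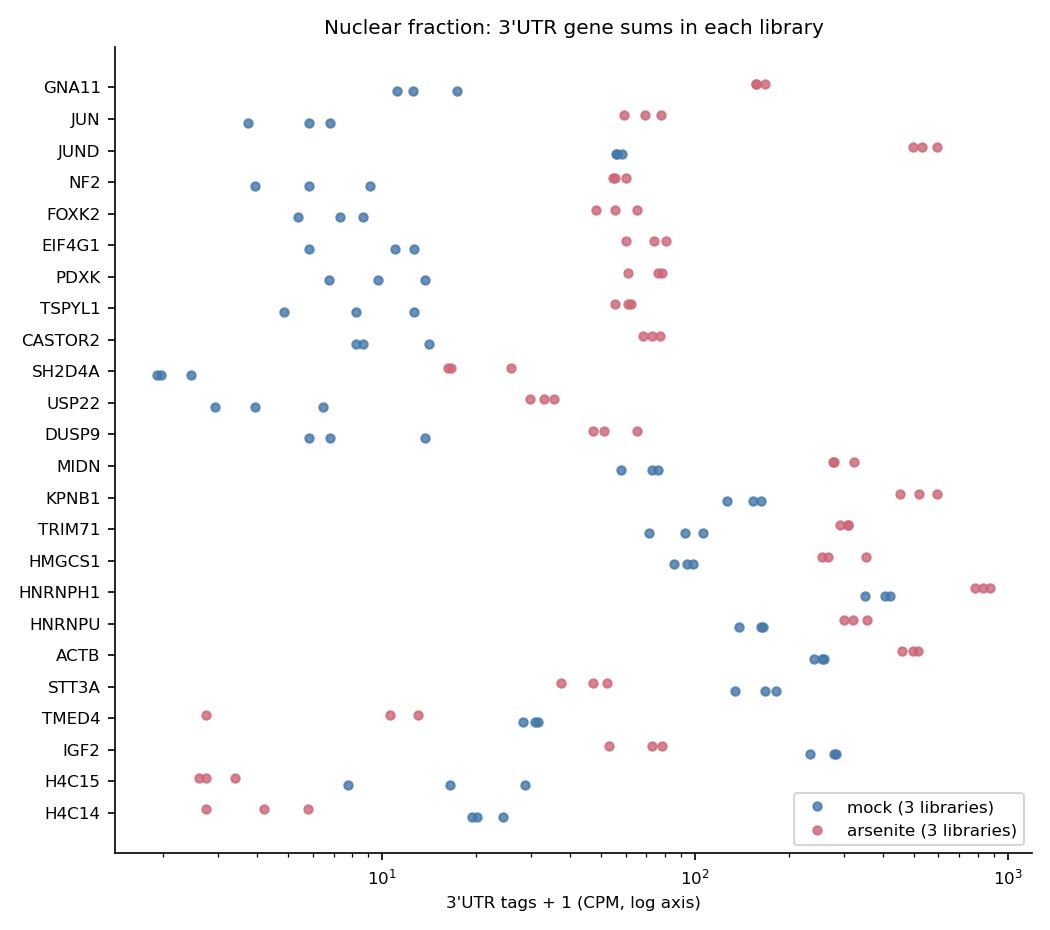
3′UTR sums plus 1 CPM (x axis, log scale) of the 19 named rising and 5 named falling genes (y axis, ordered by log2 difference) in each nuclear library. Blue points are the 3 mock and red points the 3 arsenite libraries; the groups are apart for each gene, from GNA11 at the top to H4C14 at the bottom.

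By textbook function, 31 of the 47 3′UTRs that fell encode secreted, membrane or endoplasmic reticulum (ER) proteins, 3 encode ribosomal proteins, 3 RNA-binding proteins, 2 histones, 1 a transcription protein and 7 others. These 47 are all the falls called, whereas the 47 largest rises were taken only from those whose groups did not overlap. Of those rises, 0 were filed as secreted, membrane or ER proteins, 18 under transcription or chromatin, 8 under signalling, 6 under RNA binding or translation and 15 elsewhere. Each gene was given 1 role, so GNA11, which couples receptors to phospholipase C, was not counted as a membrane protein. These roles were assigned by hand after the values were seen, and the same shares over all tested 3′UTR genes were not determined, so they describe these calls and have no test. The falling genes had a median of 30.0 CPM in nuclear mock libraries and 104 CPM in cytoplasmic mock libraries. The rising genes had 9.27 and 41.4 CPM, and all tested genes 8.36 and 28.9 CPM. In nuclear arsenite libraries the medians were 15.8 CPM for falling, 24.2 CPM for rising and 14.4 CPM for all tested genes. Nuclear levels also decided which genes were called, so their order adds no support. The median gene span of the falling genes was 19954 bp, against 51785 bp for the rising and 51420 bp for all tested genes.

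The largest falls were H4C14, H4C15, IGF2, TMED4 and STT3A. IGF2, a secreted growth factor, had 232, 276 and 282 CPM in mock and 77.7, 72.0 and 52.0 CPM in arsenite libraries, so arsenite was at 0.255 of mock (log2 difference -1.95 ± 0.126 SE, adjusted p = 2.6e-18). STT3A, the catalytic subunit of the oligosaccharyltransferase that glycosylates proteins in the ER, went from 181, 166 and 133 CPM to 51.2, 46.4 and 36.4 CPM (log2 difference -1.80 ± 0.146 SE). TMED4, a cargo receptor between ER and Golgi, went from 29.3 ± 1.76 to 7.78 ± 5.37 CPM. No mock library of these 3 genes was as low as any arsenite library. H4C14 and H4C15 are near-identical histone H4 genes whose tags cannot be assigned to one of them with certainty, and the leading H4C14 peak, at chr1:149833263-149833283, lies outside the RefSeq span of the gene. They went from 20.3 ± 2.68 to 3.24 ± 1.53 CPM and from 16.6 ± 10.5 to 1.91 ± 0.428 CPM.

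Lists of genes were compared with the whole of the 3′UTR class, of which 43.5% rose with a median of 0.69. Among early response and AU-rich genes, 10 of 13 tested rose and 0 fell, with a median of 1.32. Besides JUN and JUND, IER2, an immediate early nuclear protein, went from 1.11 ± 0.301 to 11.5 ± 1.75 CPM, and MCL1, a short-lived survival factor of the BCL2 family, from 4.30 ± 1.53 to 19.4 ± 5.43 CPM. Among textbook HuR targets 10 of 20 rose and 0 fell, with a median of 0.96. NCL, nucleolin, went from 32.8 ± 10.0 to 153 ± 12.5 CPM, CCND1, cyclin D1, from 25.8 ± 5.33 to 87.4 ± 16.2 CPM, and DUSP1, a MAP kinase phosphatase, from 2.69 ± 1.70 to 9.87 ± 0.926 CPM. ACTB had the highest mean of that list.

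Lists of RNA-binding proteins varied. Of 20 AU-rich element binding proteins 14 rose and 0 fell, with a median of 0.94. ZFP36L1, which promotes decay of AU-rich mRNAs, went from 22.8 ± 4.79 to 96.1 ± 2.25 CPM (log2 difference 2.00 ± 0.176 SE), KHSRP, another decay factor, from 24.3 ± 2.68 to 77.9 ± 5.82 CPM, and IGF2BP1, which stabilises bound mRNAs, from 49.9 ± 2.72 to 144 ± 18.9 CPM. Of 23 stress granule proteins 14 rose and 0 fell, with a median of 0.95, led by EIF4G1 and LARP1, a regulator of ribosomal protein mRNA translation, at 54.4 ± 6.33 and 166 ± 16.7 CPM. The HNRNP and SRSF splicing factors were mixed, with 12 of 27 higher, 2 lower and a median of 0.51. SRSF9 was higher, at 20.7 ± 2.87 in mock and 86.2 ± 9.04 CPM in arsenite libraries.

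Transcription factor, chromatin and signalling lists followed. Of 21 genes on a list named for forkhead, KLF, SOX and homeobox factors 18 rose and 0 fell, with a median of 1.20. SOX4 went from 24.4 ± 5.98 to 79.5 ± 10.8 CPM. HNF4A, which had the highest mean of the list, went from 51.9 ± 10.8 to 140 ± 17.4 CPM. HNF4A is a nuclear receptor of hepatocytes, so the list was not confined to those families. Of 31 chromatin regulators 16 rose and 0 fell, with a median of 0.80. KDM5C, a histone H3 lysine demethylase, went from 21.4 ± 7.95 to 115 ± 16.8 CPM and ARID1A, a BAF remodelling subunit, from 17.1 ± 1.48 to 82.1 ± 9.97 CPM. Ubiquitin proteases of the USP family had 11 of 14 higher with a median of 1.27, PPP phosphatase subunits 11 of 17 with 1.14, and MAP kinases and CDKs 10 of 14 with 1.02. None of these 3 lists had a member called lower.

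Other nuclear and housekeeping lists lay near the class as a whole. Of mRNA export and nuclear transport genes 7 of 15 rose, of transcription and 3′ end processing genes 4 of 14, of translation factors 8 of 17, of RAB GTPases 6 of 16, of RNF, TRIM and FBX ubiquitin ligases 8 of 20 and of ZNF zinc finger genes 19 of 49, with medians between 0.60 and 0.74 and 0 called lower. ALYREF, an mRNA export adaptor, went from 35.01 ± 4.22 to 78.0 ± 10.8 CPM. Proteasome subunits had 2 of 7 higher with a median of 0.57, and oxidative phosphorylation genes 1 of 4 higher, NDUFS1, and 1 lower, NDUFB4. The NDUFB4 call (adjusted p = 0.033) was lost without mock library 1, mock library 2, arsenite library 1 or arsenite library 3 (adjusted p from 0.0794 to 0.161).

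Stress response lists had medians from 0.46 to 0.88, on either side of the class. Of 12 heat shock and chaperone genes 5 rose and 0 fell, with a median of 0.58. HSPA9, the mitochondrial HSP70, went from 15.6 ± 1.91 to 54.0 ± 5.89 CPM, and HSPA1B, an inducible HSP70 with a near-identical copy in HSPA1A that could share its tags, from 9.85 ± 4.07 to 32.3 ± 11.7 CPM. Of 8 genes of the NRF2 oxidative stress response 4 rose and 2 fell. TXNRD1, thioredoxin reductase, went from 28.7 ± 0.645 to 88.2 ± 13.8 CPM and UGDH, which makes UDP-glucuronate, from 21.6 ± 4.49 to 83.6 ± 14.4 CPM. TXN, thioredoxin itself, went from 11.3 ± 1.56 down to 2.18 ± 1.65 CPM and PRDX1, a peroxiredoxin, from 20.2 ± 5.91 to 11.3 ± 3.07 CPM. Of 5 integrated stress response genes 1 rose, SLC7A5, an amino acid transporter (adjusted p = 0.042), whose groups overlapped and whose call was lost without any 1 of 4 libraries (mock 2, mock 3, arsenite 2 or arsenite 3; adjusted p from 0.0787 to 0.268). The median of that list was 0.46.

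**Figure D4:**
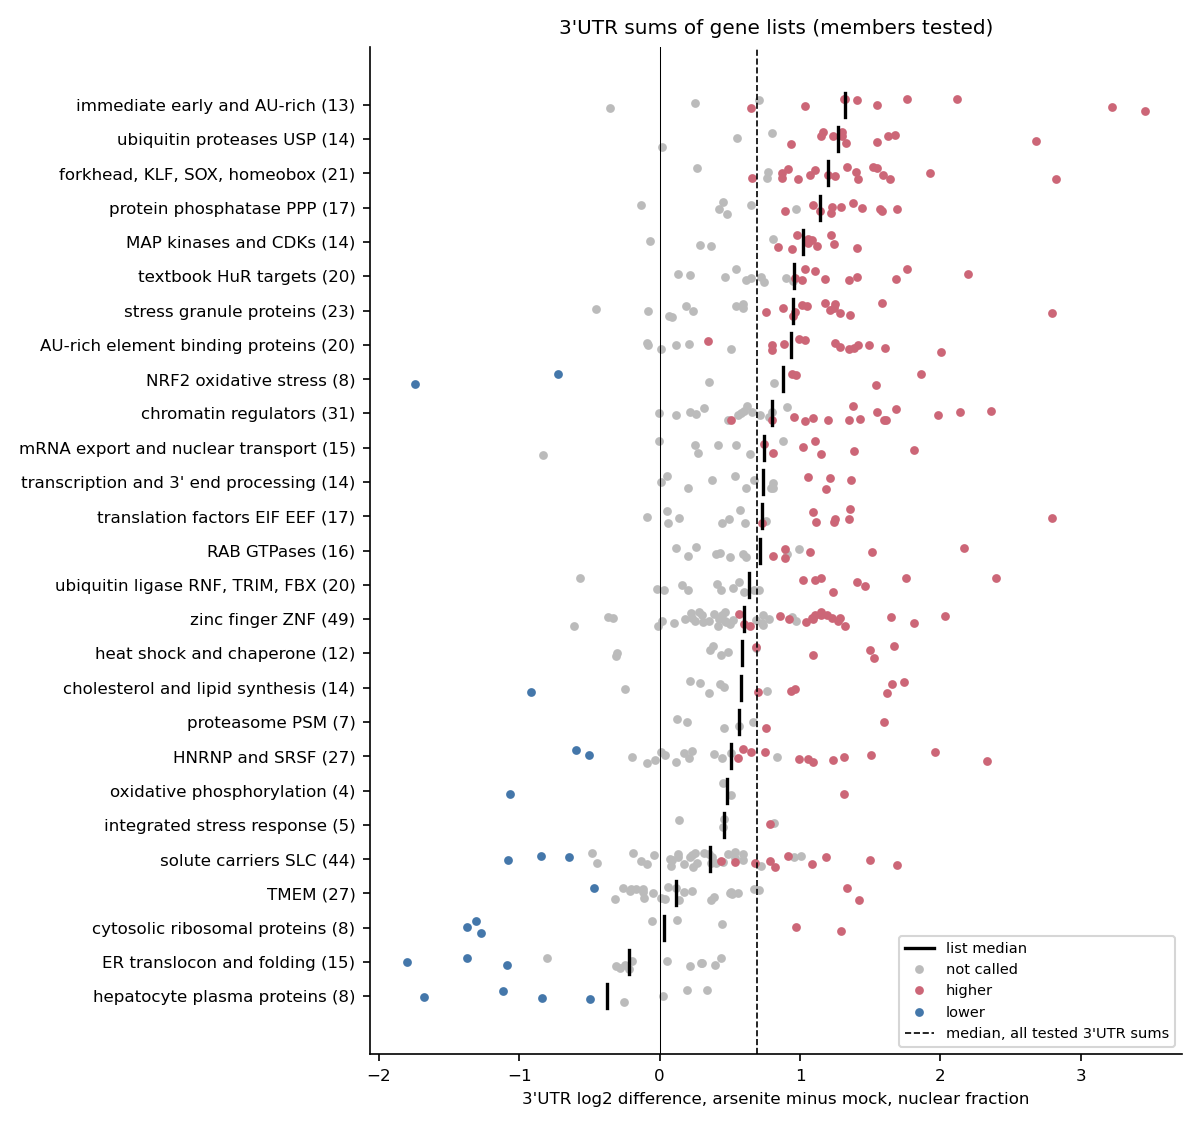
Log2 difference, arsenite minus mock, of each tested 3′UTR sum (x axis) in the gene lists shown, each with at least 4 tested members (y axis, number tested in brackets). Red and blue points passed an adjusted p of 0.05, black ticks are list medians and the dashed line is the median of all tested 3′UTR sums, 0.69; early response genes lie highest and hepatocyte plasma proteins lowest.

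Of 8 hepatocyte plasma protein 3′UTRs 0 rose and 4 fell, with a median of -0.37. ALB, serum albumin, had 81.6, 95.5 and 84.0 CPM in mock and 32.8, 24.0 and 21.7 CPM in arsenite libraries (log2 difference -1.68 ± 0.176 SE, adjusted p = 4.5e-11). FGB, the fibrinogen beta chain, went from 26.2 ± 5.52 to 10.96 ± 2.01 CPM, TFPI, an inhibitor of coagulation, from 29.6 ± 4.74 to 15.8 ± 3.72 CPM and AFP, alpha-fetoprotein, from 57.5 ± 8.20 to 40.3 ± 6.45 CPM. The AFP 3′UTR call was the least secure of the 4, with an adjusted p of 0.034 that was 0.135, 0.116 and 0.199 without mock library 2, mock library 3 or arsenite library 3.

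Intron signal of ALB and AFP fell as well. ALB introns went from 128 ± 12.2 to 39.0 ± 9.88 CPM and AFP introns from 252 ± 15.7 to 118 ± 12.03 CPM, and of 15 plasma protein intron sums 5 fell and 0 rose, with a median of -0.40. Mitochondrially encoded RNA, a marker of cytoplasmic material, moved the same way as the secretory genes, from 451.7 to 521.0 CPM in mock to between 263 and 396 CPM in arsenite libraries of the nuclear fraction, and from 1129 ± 206 to 422 ± 81.2 CPM in the cytoplasmic fraction. Its part in these falls was not tested. Lists drawn up after these values were seen gave 0 of 15 higher and 3 lower for ER translocation and folding genes, with a median of -0.21, and 2 of 27 higher and 1 lower for TMEM genes, with a median of 0.12. PDIA4, an ER protein disulphide isomerase, went from 119 ± 4.63 to 44.7 ± 1.87 CPM, and SRPRB, a subunit of the signal recognition particle receptor, from 18.3 ± 4.99 to 7.36 ± 1.12 CPM. Solute carriers, also membrane proteins, had 10 of 44 higher and 3 lower with a median of 0.36. Of 8 cytosolic ribosomal protein 3′UTRs 2 rose and 3 fell, with a median of 0.03.

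In the intron class 114 of 4297 tested sums rose (2.65%) and 417 fell (9.70%), with a median of -0.15. The falling count was 261 without arsenite library 1, and the rising count was 69 without arsenite library 2 and 63 without arsenite library 3. With each library centred on its median sum, 86 rose and 646 fell. The largest rise was in SPP2, which encodes a secreted phosphoprotein of liver, from 2.39 to 31.1 CPM, and the largest fall in CROCC, a centrosome linker, from 12.7 to 1.09 CPM, although the leading CROCC peak lies outside the RefSeq span of the gene. Of 26 intron sums of cholesterol and lipid synthesis genes 11 rose and 1 fell, with a median of 0.32, and these intron members were named after their values were seen. HMGCS1, which makes HMG-CoA for the sterol pathway, had 213, 205 and 190 CPM in mock and 380, 378 and 417 CPM in arsenite libraries (log2 difference 0.94 ± 0.0880 SE, adjusted p = 1.1e-12). INSIG1, the ER anchor that retains the sterol sensor, went from 13.9 ± 3.13 to 46.0 ± 2.13 CPM.

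The 3′UTRs of that list had 6 of 14 higher and 1 lower, with a median of 0.58, below the class. HMGCS1 went from 92.1 ± 6.47 to 290 ± 53.2 CPM, ACSL4, a fatty acid activating enzyme, from 7.67 ± 3.06 to 29.4 ± 2.46 CPM and INSIG1 from 10.4 ± 1.54 to 36.9 ± 1.99 CPM. CYP51A1, lanosterol demethylase, was split. Its introns went from 20.4 ± 4.12 to 42.5 ± 4.91 CPM, while its 3′UTR went from 13.9 ± 2.03 to 6.62 ± 2.39 CPM.

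Within a gene the 3′UTR could be set against the intron. This takes out a change in the amount of the gene's RNA that is common to both. For low sums it does so only in part, since 2 CPM was added to each. Of 1591 genes with both sums tested, the ratio of 3′UTR to intron signal was higher with arsenite in 765 (48.1%) and lower in 11 (0.691%), with a median log2 difference of 0.89. Without arsenite library 1 the higher count was 498, and without arsenite library 3 the lower count was 7. For 570 genes the 3′UTR rose while the intron passed the test in neither direction, for 92 the 3′UTR rose and the intron fell, and for 22 both rose.

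The 4 largest increases of the ratio were in SH2D4A, ICMT, TCF20 and MORC2. TCF20, a transcriptional coregulator, went from 16.7 ± 1.97 to 107 ± 17.2 CPM in the 3′UTR and from 39.6 ± 5.34 to 24.3 ± 1.598 CPM in introns (log2 ratio difference 3.19 ± 0.331 SE, adjusted p = 0.00012). MORC2, a chromatin silencing ATPase, went from 11.04 ± 1.205 to 66.9 ± 9.87 CPM and from 15.03 ± 6.597 to 7.69 ± 1.81 CPM. ICMT, which methylates prenylated proteins, went from 3.64 ± 0.737 to 11.5 ± 1.69 CPM in the 3′UTR and from 10.1 ± 3.91 to 0.822 ± 0.801 CPM in introns. The 4 largest decreases were in TMBIM6, CYP51A1, TAF1D and NABP1, of which TAF1D lost its call without mock library 2 (adjusted p = 0.0509). TMBIM6, an ER membrane protein that limits cell death, went from 86.5 ± 9.65 to 44.4 ± 3.18 CPM in the 3′UTR and from 15.5 ± 3.44 to 32.8 ± 8.38 CPM in introns (log2 ratio difference -1.92 ± 0.333 SE, adjusted p = 0.00091).

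Of 115 tested 5′UTR sums 35 rose (30.4%) and 6 fell (5.22%). TOB1, an antiproliferative protein that recruits deadenylase, went from 11.1 ± 3.43 to 80.0 ± 7.75 CPM and POLR2A, the largest subunit of RNA polymerase II, from 2.36 ± 0.787 to 25.3 ± 5.92 CPM, each in 1 peak. H2BC5, a histone H2B gene, went the other way, from 16.0, 12.7 and 8.69 CPM to 0.801, 1.6 and 0 CPM (log2 difference -2.38 ± 0.417 SE, adjusted p = 1.2e-05). Some 5′UTR peaks of genes that passed the test lay within RefSeq promoter windows (GRCh38.p14), and the RNA under 4 of them, chosen after values and letters were seen, is shown to compare 3 that gained with 1 that lost signal. Capitals mark the 20-nt peak, with 5 flanking bases on each side, read from the base after the listed start, so the letters would shift by 1 if the table counts from 1.
PPP1R9B: ucauuUUUUUUUUUAAAGCGGGAUUaacug
C6orf62: uuuuuUUUUUUGGAAAGCAAGGAUCacacu
MAP4K4: uuuguUUUUUGGUGGCAAAAAGGGAaaaug
H2BC5: cucagGUGUUUGCAACAGUGUUCUAacuau
The PPP1R9B peak (chr17:50150667-50150687, minus strand) went from 1.21 ± 2.10 to 14.2 ± 4.01 CPM. The C6orf62 peak (chr6:24719141-24719161, minus strand) went from 8.52 ± 0.710 to 95.1 ± 25.8 CPM, and the MAP4K4 peak (chr2:101698058-101698078, plus strand) from 7.37 ± 2.83 to 25.8 ± 7.14 CPM. The 3 peaks hold 11, 7 and 6 U. The H2BC5 peak (chr6:26158134-26158154, plus strand), which fell, holds 8 U, so the number of U did not order the 4. Among the other peaks read in the same way, those of CREBBP (3.92 to 10.5 CPM) and SLC38A2 (27.5 to 42.9 CPM) were higher with arsenite and hold no run of 5 U.

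Of 525 tested non-coding RNA (ncRNA) sums 38 rose (7.24%) and 57 fell (10.9%). NORAD, a cytoplasmic RNA that sequesters Pumilio proteins, had 29.1, 30.0 and 25.1 CPM in mock and 129.7, 136.8 and 108.3 CPM in arsenite libraries (log2 difference 2.07 ± 0.159 SE, adjusted p = 1.3e-15). TUG1, annotated in the 3′UTR class, went from 17.5 ± 1.29 to 51.6 ± 4.95 CPM and OVCH1-AS1, an antisense transcript, from 13.2 ± 4.92 to 90.3 ± 3.96 CPM. GAS5, SNHG1 and SNHG6, which host snoRNAs, fell: GAS5 went from 494 ± 44.4 to 201 ± 27.6 CPM, SNHG1 from 480 ± 15.9 to 233 ± 41.9 CPM and SNHG6 from 70.8 ± 2.15 to 24.0 ± 4.23 CPM. Of 14 listed nuclear long non-coding RNAs, these hosts included, 2 rose and 6 fell. NEAT1, summed over all classes of the gene, went from 413 ± 27.7 to 539 ± 95.8 CPM, and its groups overlapped. MALAT1 was called higher by 0.18 ± 0.0483 (SE, adjusted p = 0.0047), but its groups overlapped, and the adjusted p was 0.16 when libraries were centred on the median, 0.14 without mock library 2 and 0.25 without arsenite library 3.

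The snoRNA class moved in one direction. Of 48 tested snoRNA-class sums 0 rose and 33 fell (68.8%), with a median of -1.05 and none above 0. SNORD58A, a guide of ribosomal RNA methylation, went from 27.2 ± 4.33 to 8.47 ± 1.70 CPM and SNORD13, which acts in 18S rRNA maturation, from 22.3 ± 3.51 to 8.51 ± 0.881 CPM. SNORD3C, a U3 copy with the highest mean of its list, was at 46.1 ± 7.87 and 43.3 ± 9.74 CPM (adjusted p = 0.76). RNU5B-1, a U5 spliceosomal RNA gene, went from 117, 196 and 130 CPM to 39.2, 19.2 and 31.2 CPM (log2 difference -2.25 ± 0.180 SE, adjusted p = 6.1e-15).

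At 3 microRNA hairpins in the ncRNA class, peaks at the 5′ edge of the hairpin lost signal. The mature microRNAs these hairpins yield are shown to tell the loci apart, with the seed (bases 2 to 8, which pairs with targets) in capitals, and both MIR16 genes yield the same 5p strand.
hsa-miR-301a-3p: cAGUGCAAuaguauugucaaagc
hsa-miR-301a-5p: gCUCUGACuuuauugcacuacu
hsa-miR-16-5p: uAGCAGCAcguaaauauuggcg
Under the same reading of the start, the peak covers the first 9 bases of the MIR301A hairpin, the first 2 of MIR16-1 and the first base of MIR16-2, and otherwise lies 5′ of the hairpin. The MIR301A peak (chr17:59151212-59151232, minus strand, counted under its host SKA2) had 13.1, 10.0 and 11.6 CPM in mock and 0.801, 0 and 2.60 CPM in arsenite libraries. The MIR16-1 peak (chr13:50049059-50049079, minus strand) went from 18.0 ± 7.59 to 3.02 ± 0.553 CPM and the MIR16-2 peak (chr3:160404725-160404745, plus strand, counted under its host SMC4) from 13.98 ± 5.52 to 3.00 ± 0.871 CPM. All arsenite libraries lay below all mock libraries at each of the 3, as at 5 of the 17 peaks in all on hairpins. The 3 loci were chosen after their values were seen, among 17 of 1562 RefSeq hairpins that had a peak with a nuclear tag. Of these 17, the MIR3658 peak, in the 3′UTR of UCK2, went the other way, from 10.2, 6.36 and 3.86 CPM to values between 12.8 and 20.8 CPM. Some peaks with few tags also had higher arsenite means, among them MIR19A (1.88 to 3.58 CPM) and MIR1248 (0.644 to 1.62 CPM).

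Whether the arsenite effect differed between the nuclear and the cytoplasmic fraction was tested with an interaction term over 12 libraries, 3 of each treatment in each fraction. Over all classes 8424 sums were tested, and the effect was higher in the nuclear fraction for 1988 (23.6%) and lower for 1569 (18.6%). Of 2850 3′UTR sums the effect was higher in the nuclear fraction for 1848 (64.8%) and lower for 4 (0.14%), and of 4092 intron sums it was higher for 43 (1.05%) and lower for 1296 (31.7%). When each library was centred on its median sum, the split over all classes turned to 1879 higher and 1891 lower, and the 3′UTR count was 1754 and the intron count 1565. Of the 982 3′UTRs that rose in the nucleus, 976 were in this fit. In the cytoplasm 354 of the 976 fell and 43 rose, with a median of -0.39. Of all 2232 3′UTRs tested in both, 975 fell and 61 rose in the cytoplasm, with a median of -0.54. Of the 45 that fell in the nucleus and were in the fit, 41 fell in the cytoplasm too, with a median of -2.07.

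JUN rose in both fractions, in the cytoplasm from 9.38 to 70.0 CPM, and its effects did not pass the test of a difference (log2 0.74 ± 0.349 SE, adjusted p = 0.080). GNA11 and JUND rose in both and more in the nucleus, by 2.04 ± 0.238 and 1.69 ± 0.192 on the log2 scale (SE; adjusted p = 7.3e-10 and 2.9e-10). ACTB moved in opposite directions, from 249 to 490 CPM in the nucleus and from 2385 to 1032 CPM in the cytoplasm, a difference in effect of 2.16 ± 0.153 (SE, adjusted p = 6.7e-17). NORAD went from 28.1 to 125 CPM in the nucleus and from 141 to 111 CPM in the cytoplasm, where its adjusted p was 0.097.

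The tested 3′UTR genes were split into 5 groups of 451 or 452 by their level in the cytoplasmic mock libraries. From the lowest to the highest group, 26.8%, 34.6%, 43.2%, 56.3% and 56.8% rose in the nucleus. The median nuclear log2 difference was 0.59, 0.70, 0.71, 0.76 and 0.70 in the same order. Low sums pass the test less readily, and nuclear level was not matched between the groups. The shares that rose therefore need not reflect larger changes. Falls numbered 7, 4, 2, 9 and 25, and the last group held 25 of the 47.

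**Figure D5:**
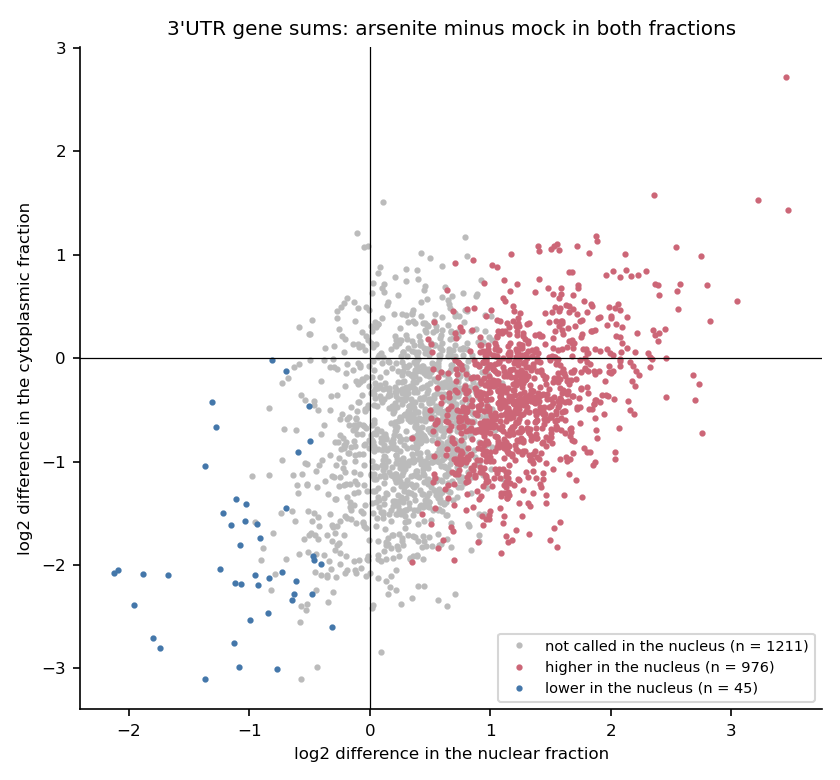
Log2 difference, arsenite minus mock, in the nuclear fraction (x axis) and in the cytoplasmic fraction (y axis) for 3′UTR sums tested in both. Red and blue points were called higher and lower in the nucleus; most red points lie right of 0 and below 0 on the y axis, with a median of -0.39 there, and the blue points have a cytoplasmic median of -2.07.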

How the data were processed

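The 6 nuclear-fraction HuR CLIP-seq libraries, and 6 cytoplasmic ones for the interaction, came from the authors' deposited table of peak coverage. Per the file headers and values, each deposited signal is a peak's tag count over the library total; whole tags came out for 100% of values (tolerance 0.01 tag). The submitters' processing notes name Bowtie2, SAMtools, bedtools, HOMER and GRCh38.p14, without roles. The 8257 repeated lines were dropped, and 46 columns of other samples were not used. Tags were summed per gene name and class, leaving out 84358 peaks with no gene name, and scaled to CPM.

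Sums with a mean of at least 5 CPM entered limma 3.58.1 (trended eBayes) on log2(CPM + 2), with Benjamini-Hochberg adjustment over all sums; this scale understates changes of low sums. The 3′UTR to intron ratio and the fraction interaction used the same model. edgeR 4.0.16 and DESeq2 1.42.0 on the recovered tags were alternatives. On simulated counts for this comparison (7759 sums, dispersion set to 0.05), limma called 73 of 90 4-fold changes, 16 of 94 2-fold changes and 2 of 7575 unchanged sums. Far fewer sums changed there than the 1822 called in the data, so these rates need not hold for the data. Class shares were compared by exact permutation.

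Members and gene lists were chosen with earlier results of these data known. Named 3′UTRs were the 12 largest rises without overlap, the 8 rises with the highest arsenite level and the 5 largest falls; for other classes, the ratio and the interaction, the 4 largest each way; for lists, up to 4 called members and the one with the highest mean. Other genes (ELAVL1, PRDX1, 5′UTR and microRNA sites) were named after their values were seen. Some named genes and 1 list are not reported here. Gene spans and sequences are RefSeq's (GRCh38.p14); symbols of all 2256 tested 3′UTR genes matched. Whether peak coordinates count from 0 or 1 is not given in the sources used here. Deviations from the group means correlated at 0.037, 0.0067 and 0.028 between same-numbered mock and arsenite libraries, and the numbers were not used as pairs.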

Additional observations from a re-analysis of the deposited data

Results flagged for a closer look

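The effect of arsenite differed between the fractions for 1848 3′UTR sums, whose effect was higher in the nuclear fraction, and for 1296 intron sums, whose effect was lower there, by the limma interaction term over 12 libraries. The largest positive differences on the log2 scale were in the 3′UTR sums of POTEF (3.65 ± 0.469 SE, adjusted p = 8.2e-09), PDXK (3.48 ± 0.297), CORO1C (3.38 ± 0.199) and POTEI (3.25 ± 0.437). CORO1C, an actin-binding coronin, went from 49.4 ± 4.24 to 149.7 ± 24.7 CPM in the nucleus and from 475 ± 72.5 to 132 ± 9.66 CPM in the cytoplasm. PDXK went from 61.4 ± 7.23 to 36.3 ± 3.74 CPM in the cytoplasm. POTEF and POTEI are near copies of ACTB, which can share their tags, and had 0.606 and 1.87 CPM in nuclear mock libraries, so their values are uncertain.

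The largest negative differences were in PPIG, annotated as Other (-2.89 ± 0.604 SE, adjusted p = 0.00013), ASCC1 introns (-2.52 ± 0.504), R3HDM1 in the TE class (-2.37 ± 0.499) and TCF7L1 introns (-2.26 ± 0.453). PPIG, a nuclear cyclophilin, went from 13.9 ± 1.89 to 2.93 ± 2.81 CPM in the nucleus and from 1.41 ± 2.44 to 3.99 ± 1.58 CPM in the cytoplasm. TCF7L1, a transcription factor of Wnt signalling, went from 17.5 ± 1.54 to 6.02 ± 1.20 CPM in the nucleus and from 4.89 ± 1.29 to 12.1 ± 5.81 CPM in the cytoplasm. ASCC1 introns were at 11.2 and 6.74 CPM in the nucleus and at 2.44 and 13.6 CPM in the cytoplasm, and R3HDM1 at 12.5 and 4.62 CPM and at 5.99 and 15.3 CPM.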

How the results depend on the processing

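All 32 named 3′UTR and other-class features outside the lists kept their direction and call in each of the 17 to 19 alternatives that gave them a value, with a highest adjusted p of 0.0083. Of 152 called features named by any part of the rule, 118 kept the call throughout and 34 lost it in at least 1. Taking each gene's largest peak in place of the sum turned the direction of PSMD11 (-0.22) and SLC38A2 (-0.13). Counts of calls moved by over 1.5 times as follows; where the alternative does not itself test fewer sums or samples, the cause was not tested. With a mean of at least 20 CPM, 911 sums were called, with 426 3′UTRs higher and 27 lower, 70 introns higher and 272 lower, 17 snoRNA sums lower, 231 ratios higher and 926 3′UTR interactions. With the largest peak, 989 were called, with 544 3′UTRs higher and 88 introns lower. DESeq2 called 842, with 550 3′UTRs higher and 20 lower and 30 introns higher and 136 lower. With no filter on the mean, 27 3′UTRs and 212 introns were lower and 860 intron interactions were called. Centring on the median gave 646 introns lower. Leaving out 1 library gave 63 to 107 introns higher, 261 to 377 introns lower, 498 to 722 ratios higher and 7 to 12 lower; all sums called ranged from 1306 to 1702 and 3′UTRs higher from 730 to 986. With replicate number as a block, 1938 sums, 735 higher ratios and 1850 3′UTR interactions were called, and the sign-flip p of the class shares was 0.25, the smallest that 3 pairs allow; not every library correlated best with its own number. Depth limits what low sums can show, since 3 tags are worth 2.40 to 4.37 CPM and 2256 of 7619 3′UTR genes reached the mean needed for a test. The planned comparison of peak sequence features was not run, since no genome was used here.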
